A study of Rattus norvegicus with 4 samples.

Results

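GABA-A receptors are the chloride channels through which GABA, the main fast inhibitory transmitter alongside glycine, quiets neurons of the spinal dorsal horn. The 7 subunit genes described here are Gabra2, Gabra3, Gabra4, Gabra5, Gabrb1, Gabrb2 and Gabrg1, out of 26650 genes or unnamed transcripts represented on the array. They were found through the RefSeq accession attached to each probe, and each of the 7 was represented by 1 probe printed on 2 spots. Per their titles, the arrays compared dorsal horn RNA of oxaliplatin-treated rats with that of vehicle-treated rats. Oxaliplatin is a platinum chemotherapy drug that causes a painful neuropathy. On the 2 oxaliplatin arrays, per the labels, the Cy5 dye marked RNA of male rats aged 6 weeks, treated with oxaliplatin and taken on day 10, and the Cy3 dye marked RNA of untreated male rats of that age. On the 2 vehicle arrays Cy5 marked RNA of vehicle-treated male rats of the same age and day, again with untreated RNA in Cy3. Strain, dose, route and the number of animals behind an array are not given in the sources used here, and for labelling the submitters' protocols mention Cy3 alone.

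Each receptor is a ring of 5 subunits, most often of the α, β and γ kinds. GABA binds where β meets α, while benzodiazepines bind where α meets γ, so the α and γ present decide much of a receptor's pharmacology. In mice, receptors with α2 or α3 carry much of the pain relief that benzodiazepines give when they act on the spinal cord. Receptors with α4 or α5 lie largely outside synapses in many brain regions and give a steady, tonic inhibition.

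The quantity reported throughout is the log2 Cy5/Cy3 ratio after normalisation within the array, and a difference is the mean on the oxaliplatin arrays minus the mean on the vehicle arrays. A ratio above 0 means more signal in Cy5 than in Cy3, and the Cy5 level itself need not be raised. No dye swap was made, so dye bias stays in every ratio taken alone. The dye layout was the same in both groups, but whether the bias was equal between them was not tested. Over all genes the ratios of any 2 arrays correlated by 0.75 to 0.93 across genes. Both oxaliplatin arrays lay on 1 slide and both vehicle arrays on another, so slide and treatment cannot be told apart. Cy3 was dimmest on oxaliplatin replicate 2, with a median spot signal of 283.5, while oxaliplatin replicate 1 had 494 and vehicle replicates 1 and 2 had 564 and 530.

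The tissue label was checked against marker lists. Markers of dorsal horn inhibitory neurons had a median ratio of -0.38 on the oxaliplatin and -0.20 on the vehicle arrays, over 11 genes measured. Those of dorsal horn excitatory neurons lay above 0, at 0.25 and 0.088 over 8 genes, and those of neurons in general at 1.1 and 1.08 over 8 genes. Those of sensory ganglion neurons, whose cell bodies lie outside the cord, stood at 3.90 and 3.91 over 10 genes. Forebrain transcription factors stood at 2.78 and 2.90 over 12 genes, while Hox genes of the cord stood at -1.17 and -0.91 over 6 genes. The forebrain genes' summed normalised Cy5 signal was 36720 to 36910 on the oxaliplatin arrays and 32660 to 33730 on the vehicle arrays, against Cy3 sums of 3556 to 4350 and 3666 to 4007. No marker of these 6 lists that was on the array failed the filter on dim probes. Transcripts of ganglion and forebrain were thus abundant in Cy5 in both groups, which goes against the label, and their part in the ratios of the receptor genes was not tested.

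All 7 subunits were well above background in both channels on all 4 arrays, on all 8 spots each, so none was lost to the filter on dim probes. Their weakest signal was 4 times the local background, for Gabrb2 in Cy3 on oxaliplatin replicate 2, and no spot was saturated or marked as an outlier. The duplicate spots of a subunit differed by a median of 0.0675 (log2) and by at most 0.207. Precision is limited by having 2 arrays in a group.

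The comparison of oxaliplatin with vehicle asks whether the drug altered these transcripts in the RNA labelled as dorsal horn. None of the 7 subunits passed the test, as was so for all 22821 genes measured (limma, Benjamini-Hochberg adjusted, 0 genes, 0%). At an unadjusted p under 0.05 the count was 1 of the 7, Gabrb1, and 14.6% of all genes. Their median difference was -0.068, against 0.0055 over all genes, with 5 lower and 2 higher. What the ratios showed instead was a spread among subunits that both groups shared. Gabra4 gave 2.98-fold and 3.38-fold more Cy5 than Cy3 signal on the oxaliplatin and vehicle arrays, whereas the mean ratios of Gabra3, Gabra5 and Gabrg1 lay between -0.17 and 0.021, for Gabrg1 with a wide spread on the oxaliplatin arrays.

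**Figure D1:**
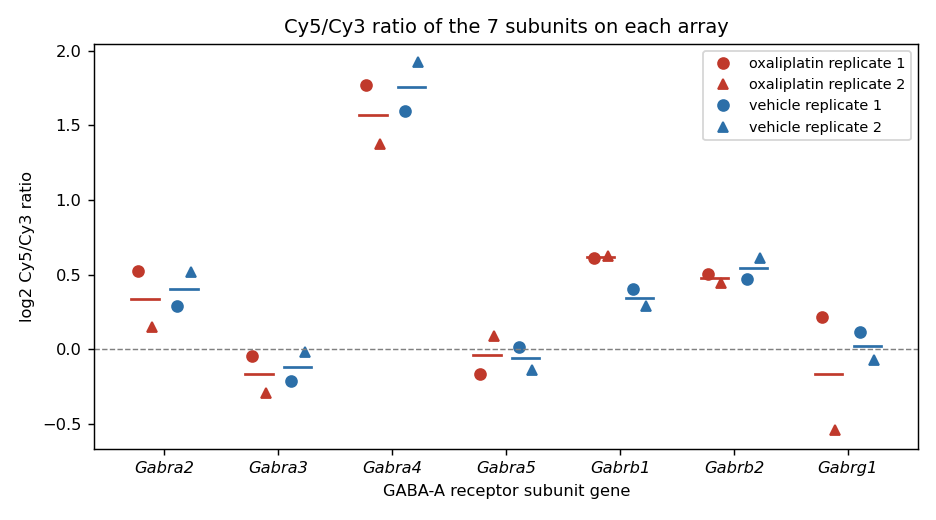
Log2 Cy5/Cy3 ratio (vertical axis) of each of the 7 subunit genes (horizontal axis) on the 4 arrays, oxaliplatin in red left of vehicle in blue, with a bar at the mean of the 2 arrays. Gabra4 lies at 1.37 or above on every array, and both oxaliplatin points lie above both vehicle points for Gabrb1 alone.

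Among the α subunits, Gabra4 stood apart. It encodes α4, which makes receptors insensitive to classical benzodiazepines and often pairs with the δ subunit. Its ratio was 1.77 and 1.37 on the oxaliplatin arrays, against 1.59 and 1.92 on the vehicle arrays. The groups overlapped, and the difference of -0.19 ± 0.18 (SE, n = 2 arrays per group) had a 95% interval of -0.61 to 0.24 (limma, adjusted p = 0.657). Its Cy5 spots read 1849 and 1981 on the oxaliplatin arrays, against 1558 and 1680 on the vehicle arrays. In Cy3 they read 280 and 220, against 332 and 250. These raw readings also carry the overall gap between the dyes, since the median spot read 993 and 1024 in Cy5 on the oxaliplatin arrays and 913 and 948 on the vehicle arrays, which the normalised ratio removes. The mean ratio of 1.57 ± 0.28 on oxaliplatin arrays and 1.76 ± 0.23 on vehicle arrays (SD, n = 2 each) lay above that of 98.5% and 98.8% of genes. Each group's ratio differed from 0 (limma, adjusted p = 2.74e-04 and 1.43e-04).

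The promoter window of Gabra4 is shown because this gene had the highest ratio of the 7. It is taken from RefSeq, build GRCr8, chr14:36944497-36944796, plus strand, from 250 bases before the gene's start to 50 bases after it, 5′ to 3′. Capitals mark the match to the GC box, GGGCGG, the letters that Sp1 and related factors bind.
Gabra4: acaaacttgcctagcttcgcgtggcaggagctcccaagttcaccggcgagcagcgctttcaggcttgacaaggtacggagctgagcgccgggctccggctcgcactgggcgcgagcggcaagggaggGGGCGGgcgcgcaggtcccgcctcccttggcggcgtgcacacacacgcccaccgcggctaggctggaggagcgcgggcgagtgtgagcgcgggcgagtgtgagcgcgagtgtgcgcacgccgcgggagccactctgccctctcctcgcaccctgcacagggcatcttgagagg
This window held 70.7% G and C, more than 92.6% of the 33469 promoter windows in the table. The GC box was searched on both strands and was found in 33.1% of all windows, and among the 6 subunits with a window in the table also in that of Gabra5. A match is a description of the letters and shows no binding.

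Gabra2 encodes α2, the subunit of many synaptic receptors of the superficial dorsal horn in rodents. Its ratio was 0.52 and 0.15 on the oxaliplatin arrays, against 0.29 and 0.52 on the vehicle arrays. The highest and the lowest value both fell on oxaliplatin arrays, so the groups overlapped fully, with a difference of -0.068 ± 0.16 (SE, 95% interval -0.46 to 0.32, limma adjusted p = 0.875). Cy5 spots read 1503 and 1669 on oxaliplatin, against 1417 and 1665 on vehicle arrays. The ratio was above 0 on all 4 arrays and passed the test against 0 on the vehicle arrays (mean 0.40, limma adjusted p = 0.0277) but not on the oxaliplatin arrays (mean 0.33, adjusted p = 0.0630). These means differed by less than their error, and the vehicle call was lost without either vehicle array (mean 0.29 to 0.52).

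Gabra3, on the X chromosome, encodes α3, and Gabra5 encodes α5, the subunit of tonic inhibition in hippocampal neurons. The ratio of Gabra3 was -0.046 and -0.29 on the oxaliplatin arrays, against -0.22 and -0.020 on the vehicle arrays. All 4 values lay below 0 and the groups overlapped, with a difference of -0.050 ± 0.14 (SE, 95% interval -0.38 to 0.28, limma adjusted p = 0.897). Gabra5 had ratios of -0.16 and 0.088 on the oxaliplatin arrays, against 0.015 and -0.14 on the vehicle arrays. Each group held a value on either side of 0, and the difference was 0.025 ± 0.14 (SE, 95% interval -0.30 to 0.35, limma adjusted p = 0.953). Neither gene passed the test against 0 in either group (limma, adjusted p of 0.226 or more).

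Gabrb1 and Gabrb2 encode β1 and β2, the subunits that form one side of the GABA site. β2 makes receptors sensitive to the anaesthetic etomidate, to which β1 receptors respond weakly. Gabrb1 had ratios of 0.61 and 0.63 on the oxaliplatin arrays, against 0.40 and 0.29 on the vehicle arrays. Both oxaliplatin values lay above both vehicle values, as they did for 27% of all genes, while the reverse held for 0 of the 7 subunits and 22.2% of all genes. Groups apart in either direction were thus seen for 1 of the 7, against 49.2% of all genes. The difference of 0.28 ± 0.12 (SE, n = 2 arrays per group) had a 95% interval of 0.00037 to 0.55 and did not pass (limma, adjusted p = 0.341). Without any 1 array it ranged from 0.22 to 0.33.

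In Cy5 the gap for Gabrb1 was smaller than its error. After normalisation of single channels it was 12.87 and 12.87 on the oxaliplatin arrays, against 12.86 and 12.87 on the vehicle arrays (log2), a difference of 0.0053 ± 0.069 (SE), although both oxaliplatin values lay marginally above both vehicle values. Before normalisation its Cy5 spots read 12245 and 12571 on the oxaliplatin arrays, against 10041 and 11292 on the vehicle arrays, and were apart. In Cy3, labelled as untreated RNA on every array, it was 12.26 and 12.24 on the oxaliplatin arrays, against 12.46 and 12.58 on the vehicle arrays, a difference of -0.27 ± 0.15 (SE, limma adjusted p = 0.336). After normalisation the larger of the gaps was thus the one in Cy3, and neither passed. The raw Cy3 spots read 3529 and 2016 on the oxaliplatin arrays, against 4356 and 4583 on the vehicle arrays. Astrocyte markers had a median ratio difference of 0.42, with 9 of 10 higher, and oligodendrocyte markers one of 0.36, with 7 of 9 higher. Over all genes the median was 0.0055. Both oxaliplatin arrays lay above both vehicle arrays for 7 and 5 of these markers, against 27% of all genes. Microglia markers were at -0.012 (4 of 8 higher), neuron markers at -0.028 (3 of 8 higher) and motor neuron markers at -0.21 (1 of 6 higher). Hox genes of the cord moved the other way, at -0.36 (0 of 6 higher). Both oxaliplatin arrays lay below both vehicle arrays for 5 of these 6, against 22.2% of all genes. The astrocyte genes' summed Cy5 signal was 204100 to 225800 on oxaliplatin arrays and 182300 to 194300 on vehicle arrays, and their Cy3 sum 312600 to 314500 and 368300 to 379100. For the oligodendrocyte genes the Cy5 sums overlapped, at 172200 to 191800 and 175700 to 178300. Their Cy3 sums were 399700 to 409000 and 525400 to 597200. For the Hox genes the Cy5 sums overlapped too, at 34880 to 36990 and 34120 to 36640. The Hox Cy3 sums were 68310 to 100400 on oxaliplatin arrays and 53690 to 62700 on vehicle arrays. All 10 astrocyte and 9 oligodendrocyte markers were measured, but only 6 of the 16 listed Hox genes were on the array. The part of these lists in the Gabrb1 value was not tested. In such bulk RNA, fewer cells of a type and less RNA per cell cannot be told apart.

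Gabrb2 had ratios of 0.50 and 0.44 on the oxaliplatin arrays, against 0.47 and 0.61 on the vehicle arrays. The groups overlapped, with a difference of -0.068 ± 0.12 (SE, 95% interval -0.35 to 0.22, limma adjusted p = 0.822). Its single channels were less alike than its ratio. Cy5 was 8.82 and 8.90 on the oxaliplatin arrays, against 9.58 and 9.11 on the vehicle arrays, a difference of -0.48 ± 0.18 (SE, limma adjusted p = 0.241). Cy3 was 8.32 and 8.46, against 9.11 and 8.5, a difference of -0.41 ± 0.23 (SE, adjusted p = 0.349). Both channels were dimmer on both oxaliplatin arrays, and the ratio cancelled most of that. In its raw Cy5 spots Gabrb2 read 617 and 656 on the oxaliplatin arrays, against 1008 and 791 on the vehicle arrays.

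Both β genes had ratios above 0 in each group. For Gabrb1 the mean was 0.62 ± 0.011 on oxaliplatin arrays and 0.34 ± 0.080 on vehicle arrays (SD, n = 2 each), with adjusted p of 0.00193 and 0.0136 (limma). For Gabrb2 it was 0.47 ± 0.043 and 0.54 ± 0.10 (SD, n = 2 each), with adjusted p of 0.00629 and 0.00258 (limma). The vehicle call of Gabrb1 was lost without vehicle replicate 1 (0.29, limma adjusted p = 0.198) or 2 (0.40, adjusted p = 0.0923), and with the scanner's log ratio (0.27, adjusted p = 0.0660) or the authors' values (0.27, adjusted p = 0.0661). That of Gabrb2 was lost without vehicle replicate 2 (0.47, limma adjusted p = 0.0554). Gabrb1 lay above 92.5% and 80.6% of genes in the 2 groups, and Gabrb2 above 89.1% and 88.5%.

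**Figure D2:**
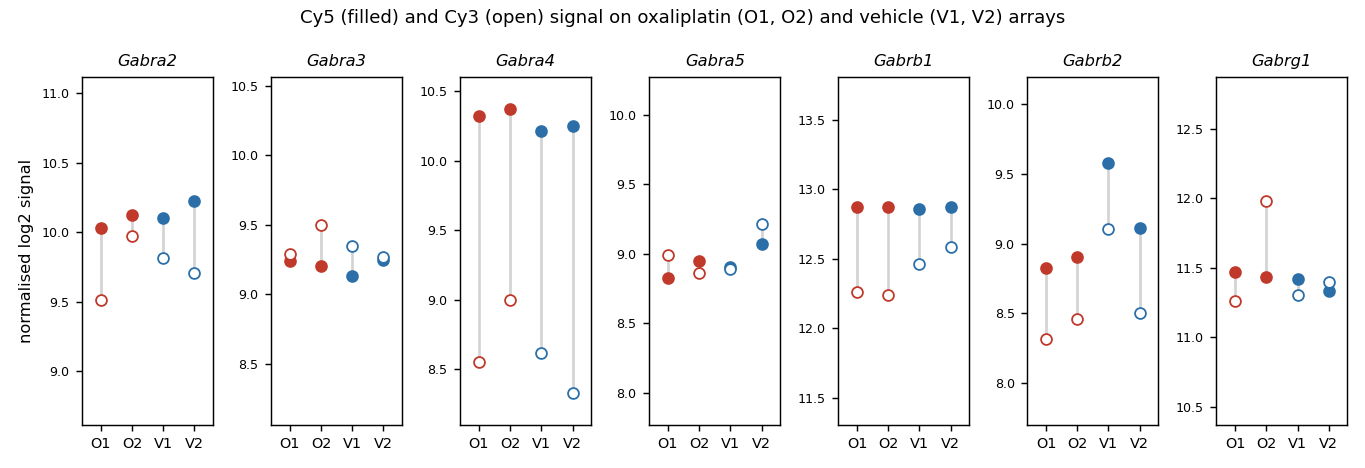
Normalised log2 signal (vertical axis, a range of 2.5 in each panel) of Cy5 (filled) and Cy3 (open) for each subunit on oxaliplatin (O1, O2, red) and vehicle arrays (V1, V2, blue). The gap between the 2 circles is the ratio: it is widest for Gabra4, and for Gabrb2 both circles lie lower on O1 and O2 than on V1 and V2.

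The promoter windows of the β genes are shown together because both genes had ratios above 0 in each group and their letters match in 3 runs. They come from RefSeq, build GRCr8, chr14:36902844-36903143 on the minus strand and chr10:27439543-27439842 on the plus strand, from 250 bases before the start to 50 after, 5′ to 3′. Capitals mark runs of at least 10 identical bases found in both windows.
Gabrb1: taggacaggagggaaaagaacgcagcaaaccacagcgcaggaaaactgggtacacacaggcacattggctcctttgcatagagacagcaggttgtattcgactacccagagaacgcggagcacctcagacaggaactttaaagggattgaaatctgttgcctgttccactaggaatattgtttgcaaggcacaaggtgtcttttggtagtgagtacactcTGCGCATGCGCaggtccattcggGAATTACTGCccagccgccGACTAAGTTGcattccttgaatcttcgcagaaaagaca
Gabrb2: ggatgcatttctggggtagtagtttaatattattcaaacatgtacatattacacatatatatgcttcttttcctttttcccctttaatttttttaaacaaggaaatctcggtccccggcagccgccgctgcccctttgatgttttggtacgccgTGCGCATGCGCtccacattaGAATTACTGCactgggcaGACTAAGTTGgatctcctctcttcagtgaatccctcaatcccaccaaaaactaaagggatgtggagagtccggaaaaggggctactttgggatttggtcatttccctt
The runs are TGCGCATGCGC, GAATTACTGC and GACTAAGTTG, in the same order in both windows. They begin 30 bases before, 7 bases before and 12 bases after the annotated start of Gabrb1, and 96, 76 and 58 bases before that of Gabrb2. The first holds the palindrome GCGCATGCGC, the letters bound by nuclear respiratory factor NRF-1, which is present in 0.852% of all 33469 windows (both strands). The first run as a whole was in 0.598% of windows, the second in 0.0388% and the third in 0.0149%. Among the 6 subunits with a window in the table, the only other run of that length was 1 between Gabra4 and Gabrb1, GCGCAGGTCC, in 0.12% of windows. The NRF-1 motif was chosen after these sequences were seen, and none of these matches shows binding. The cyclic AMP response element TGACGTCA was in none of the 6 windows and in 1.83% of all windows. The TATA box TATAAA was in that of Gabra3 and in 14.2% of all windows.

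Gabrg1 encodes γ1, which gives receptors a low affinity for benzodiazepines and is found in some glia, such as Bergmann glia of the cerebellum. It was the least repeatable of the 7. Its ratio was 0.21 and -0.55 on the oxaliplatin arrays, against 0.12 and -0.073 on the vehicle arrays. The oxaliplatin arrays lay on either side of both vehicle arrays, with an SD of 0.54 against 0.13 (n = 2 each). The difference of -0.19 ± 0.24 (SE) had a 95% interval of -0.76 to 0.39 (limma, adjusted p = 0.747), and was -0.57 without oxaliplatin replicate 1 and 0.19 without oxaliplatin replicate 2. In Cy5 it was steady, at 11.47 and 11.43 on the oxaliplatin arrays, against 11.42 and 11.33 on the vehicle arrays. In Cy3 it was 11.26 and 11.98, against 11.30 and 11.40. Oxaliplatin replicate 2, the array with the dimmest Cy3 channel, thus stood apart in normalised Cy3. Before normalisation the Cy3 spots read 1831 and 1714 on the oxaliplatin arrays, against 2077 and 2160 on the vehicle arrays. The raw oxaliplatin readings were thus alike, although the median Cy3 spot read 494 on oxaliplatin replicate 1 and 283.5 on replicate 2. Gabrg1 therefore did not dim with the rest of the channel. Gabrg1 did not pass the test against 0 in either group (limma, adjusted p = 0.480 and 0.928), but passed below 0 on the oxaliplatin side without oxaliplatin replicate 1 (-0.55, adjusted p = 0.0147).

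Counted over the family, the ratio was above 0 and passed the test in 3 of the 7 subunits on the oxaliplatin arrays (Gabra4, Gabrb1, Gabrb2) and in 19% of all genes. On the vehicle arrays it passed in 4 of the 7, these and Gabra2, and in 23.4% of all genes. None of the 7 passed below 0 in either group, while 15.8% and 22.1% of all genes did (0 subunits, limma). Both groups' ratios passed above 0 for the same 3 subunits and for 15.3% of all genes. In single channels none of the 7 passed between the groups, and neither did any gene (limma, 0 genes, 0% in Cy5 and 0% in Cy3). In Cy5 both oxaliplatin arrays lay above both vehicle arrays for 3 of the 7, Gabra4, Gabrb1 and Gabrg1, and below them for Gabrb2, against 29.6% and 30.2% of all genes. In Cy3 they lay below for Gabrb1 and Gabrb2 and above for 0 of the 7, against 31.3% and 26.9% of all genes.

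**Figure D3:**
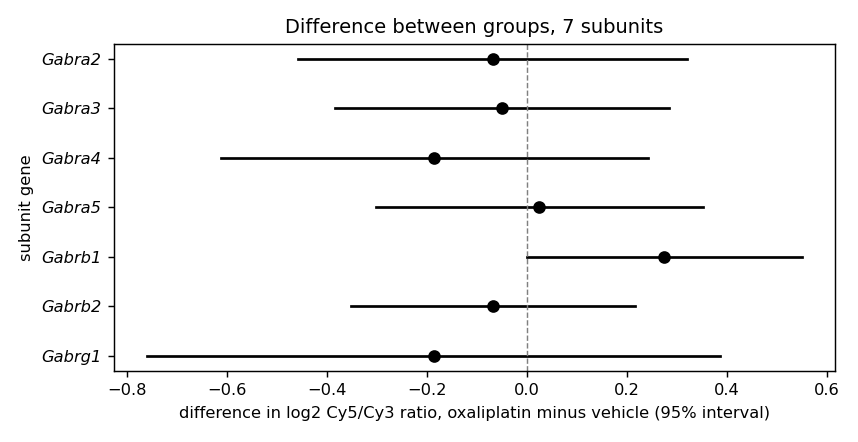
Difference in log2 Cy5/Cy3 ratio, oxaliplatin minus vehicle, with its 95% interval (horizontal axis), for the 7 subunits. The interval of Gabrb1, 0.00037 to 0.55, begins just above 0, and those of the other 6 include 0.

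**Figure D4:**
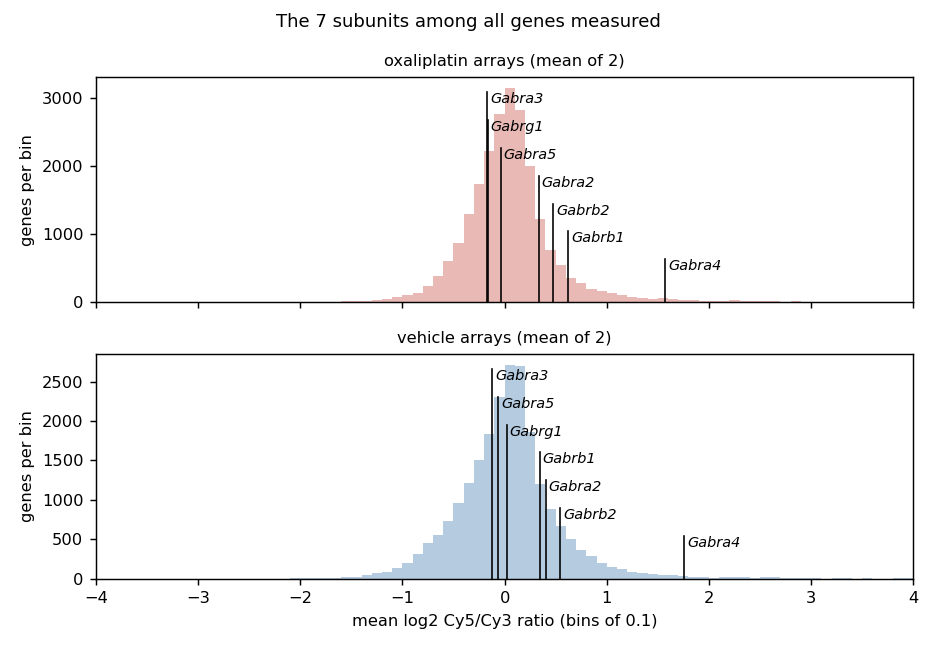
Number of genes per bin of 0.1 (vertical axis) by mean log2 Cy5/Cy3 ratio (horizontal axis, drawn from -4 to 4) on the oxaliplatin arrays (top) and the vehicle arrays (bottom), with a line at each subunit's mean. Gabra4 lies in the right tail in both panels, at 1.57 and 1.76, and Gabra3, Gabra5 and Gabrg1 lie within the main peak.

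The 12 other GABA-A subunit genes on the array were listed without regard to how they moved. Of these, 8 were measured and 0 differed between the groups by limma, against 0% of all genes. At an unadjusted p under 0.05 the count was 0, against 14.6% of all genes, and the median difference was -0.056. Both oxaliplatin arrays lay above both vehicle arrays for 1 and below for 2, against 27% and 22.2% of all genes. Gabrd, encoding the δ subunit that pairs with α4, had ratios of 2.53 and 2.45 on the oxaliplatin arrays, against 2.29 and 2.28 on the vehicle arrays. Both oxaliplatin values lay above both vehicle values (difference 0.21 ± 0.11, SE, limma adjusted p = 0.440), and Cy5 was brighter than Cy3 by more than it was for Gabra4. In single channels Gabrd was lower on both oxaliplatin arrays, with differences of -0.25 in Cy5 and -0.45 in Cy3. Gabrq, Gabrg3, Gabrr2 and Gabrr3 did not pass the test against 0 in either group. The signals of Gabrg3, Gabrr2 and Gabrr3 were weak, at most 2.6, 2.1 and 2.9 times background in Cy5. In Cy3 they were at most 2.5, 1.8 and 2.2 times background. Gabrr2 was well above background on only 3 of 8 spots in Cy5 and 2 of 8 in Cy3. For these 3 genes a ratio near 0 thus says little. Gabrq lay just below 0 on both oxaliplatin arrays, at -0.13 and -0.045, against 0.038 and 0.13 on the vehicle arrays (difference -0.18 ± 0.12, SE, limma adjusted p = 0.512). Its single channels were higher on both oxaliplatin arrays, with differences of 0.34 in Cy5 and 0.51 in Cy3.

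The remaining 4, Gabra6, Gabre, Gabrp and Gabrr1, failed the filter on dim probes. Gabre and Gabrr1 were not well above background on any spot. Gabra6, the α of cerebellar granule cells, was so on 1 of 8 spots in Cy5, and Gabrp on 2 of 8 in Cy3. No fold is given for these.

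The genes lie in clusters in the rat genome (RefSeq, GRCr8). Gabrb1, Gabra4, Gabra2 and Gabrg1 follow each other on chromosome 14, with 1 other protein-coding gene, between Gabra4 and Gabra2. These neighbours did not share a ratio: the means on the oxaliplatin arrays were 0.62, 1.57, 0.33 and -0.17 in that order, and on the vehicle arrays 0.34, 1.76, 0.40 and 0.021. Gabra5 lies beside Gabrg3 on chromosome 1, and their mean ratios were -0.038 and -0.00069 on the oxaliplatin arrays and -0.063 and 0.016 on the vehicle arrays.

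Among 28 measured genes that assemble, transport or anchor GABA-A receptors, 0 passed between the groups (limma), 5 had an unadjusted p under 0.05, against 14.6% of all genes, and the median difference was -0.027. Both oxaliplatin arrays lay above both vehicle arrays for 9 and below for 4, against 27% and 22.2% of all genes. Nsf, the ATPase that recycles membrane proteins, had ratios of -0.28 and -0.095 on the oxaliplatin arrays, against -0.85 and -0.74 on the vehicle arrays (difference 0.61 ± 0.13, SE, adjusted p = 0.294). Kif5a, a motor of receptor transport, differed by 0.65 ± 0.20 and Clptm1, which holds subunits back in the cell, by 0.44 ± 0.14 (SE, adjusted p = 0.300 each). In these 3 genes the groups were apart and none passed. In Cy5 alone Nsf, Kif5a and Clptm1 differed by 0.023, -0.24 and 0.050. In Cy3, labelled as untreated RNA, they differed by -0.58, -0.89 and -0.39, the larger gap in each.

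Of 8 genes of GABA synthesis, uptake and chloride balance, 0 passed (limma), 1 had an unadjusted p under 0.05, against 14.6% of all genes, and the median difference was -0.053. In this list 4 genes were higher and 4 lower. Both oxaliplatin arrays lay above both vehicle arrays for 2 and below for 3, against 27% and 22.2% of all genes. The vesicular transporter Slc32a1 and the GABA transporter Slc6a11 were among those below, by -0.37 ± 0.18 and -0.25 ± 0.13 (SE, limma adjusted p = 0.390 and 0.418). In Cy5 alone these 2 genes differed by -0.064 and -0.16, and in Cy3 by 0.31 and 0.090. The chloride exporter gene Slc12a5, also among those below, differed by -0.15 ± 0.13 (SE). Of 6 genes of neurosteroid synthesis, which makes steroids that act on GABA-A receptors, 0 passed (limma). Srd5a1, a steroid reductase of that pathway, had ratios of -0.90 and -0.55 on the oxaliplatin arrays, against -1.54 and -1.61 on the vehicle arrays (difference 0.84 ± 0.15, SE, adjusted p = 0.294). Its groups did not overlap, as for 49.2% of all genes, and it was the 1 gene of the list with an unadjusted p under 0.05, against 14.6% of all genes. In Cy5 alone Srd5a1 was lower on both oxaliplatin arrays than on both vehicle arrays (difference -0.23 ± 0.077, SE). In Cy3, labelled as untreated RNA, it was lower by more (-1.08 ± 0.19, SE). Neither channel passed (limma, adjusted p = 0.223 and 0.154). Tspo, Star and Hsd3b1 differed by 0.22, 0.12 and -0.030.

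Of the glycine receptor subunits, which serve the other inhibitory transmitter of the dorsal horn, 4 were measured, 0 passed (limma) and 1, Glra2, had an unadjusted p under 0.05, against 14.6% of all genes. Glra1 and Glra3 differed by -0.31 ± 0.13 and -0.30 ± 0.14, Glra2 by 0.29 ± 0.12 and Glrb by 0.17 ± 0.16 (SE). In Cy5 alone Glra1, Glra3, Glra2 and Glrb differed by -0.28, 0.38, -0.037 and 0.15. In Cy3, labelled as untreated RNA, they differed by 0.035, 0.68, -0.32 and -0.017. The GABA-A and glycine subunits thus each held differences of both signs.

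For each subunit the gene with the most similar signals was sought over the 8 channel values of the 4 arrays, each gene centred on its own mean. It was Tlcd3b for Gabra2, Ror1 for Gabra3, Bhmt for Gabra4, Tectb for Gabra5, B4galnt4 for Gabrb1, Or13n4b for Gabrb2 and Acsm3 for Gabrg1. The root mean square distances were 0.023 to 0.081 (log2), against medians over all named genes of 0.24 to 0.86. No pair among the 7 subunits was closer than 0.16, that of Gabra3 and Gabrg1. The 8 values share 4 arrays, so this is a description of these arrays.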

How the data were processed

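Dorsal horn RNA was measured on 4 Agilent 2-colour rat arrays, 2 per group, grouped by their titles. Per the file headers, the deposited scanner files hold the median intensity of each spot and its local background, the processed intensity, and the log10 Cy5/Cy3 ratio, made by Agilent Feature Extraction 10.7.1.1, whereas version 8.5.1.1 is named in the submitters' processing notes. The scanner's flags of spots above background, saturated or outlying, per the file headers, hold other values than signals. The authors' deposited value table holds the same log10 ratios, to within 0.005. Its medians were -0.00277, 0, -0.00492 and -0.00316, and 0 columns were left unmapped.

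Signals were corrected by normexp (offset 50) and log2 ratios normalised by loess within arrays in limma 3.58.1 under R 4.3.3. Control spots (4259) and outlier spots were left out, spots of a probe averaged, and 26002 of 30367 probes kept for which Cy5 exceeded background clearly on 2 arrays or more. Each gene was represented by its probe of highest mean signal (22821 genes). Probes were named through unversioned accessions in the RefSeq table, and 18758 matched. Single channels were normalised by Aquantile. Groups were compared with lmFit and eBayes (two-sided, 2 residual and 4.74 prior degrees of freedom), and p-values were adjusted over all genes by Benjamini-Hochberg, with a threshold of 0.05. P-values measure the spread between arrays, which the labels call biological replicates. On simulated data for oxaliplatin minus vehicle (22821 genes) the fit recovered 70% of 100 genes changed 2-fold and 98% of 100 changed 4-fold, with 8 false calls. The simulated noise was independent between genes and arrays and held no slide effect, so these rates may not hold for the real arrays.

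Named were all 7 subunits, the other GABA-A subunits, and up to 4 genes of each pathway list by smallest unadjusted p. The subunits and lists were chosen with earlier results of these data known. Alternatives are given in the closing section. Of the 183 listed symbols, 162 were on the array. Some genes of these lists, and what rests on them alone, are not reported here.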

Additional observations from a re-analysis of the deposited data

How the results depend on the processing

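No gene passed between the groups with median centring, the scanner's log ratio, no background correction, scaled ratios, other filters or probe rules, either channel alone or the authors' values (0 genes), whereas the replicate block called 3 and leaving out an array 2 to 937 (leaving out oxaliplatin replicate 1 gave 937 and replicate 2 gave 15, and leaving out vehicle replicate 1 gave 33 and replicate 2 gave 2). None of the 7 subunits passed under any of these. Same-numbered arrays deviated with a correlation of -0.22 across genes, so the numbers were not taken to pair the arrays, and the crossed pairing, chosen after seeing the data, called 537. The median difference of the 7 subunits stayed within -0.17 to 0.073.

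Differences that took the other sign: Gabra2 was at 0.052 and Gabra3 at 0.014 with median centring. With scaled ratios Gabra4 was at 0.029 and Gabrb2 at 0.00079. In Cy5 alone Gabra3 was at 0.035, Gabra4 at 0.12, Gabra5 at -0.10 and Gabrg1 at 0.080. In Cy3 alone Gabra3 was at 0.085, Gabra4 at 0.30, Gabra5 at -0.13, Gabrb1 at -0.27 and Gabrg1 at 0.27. Leaving out an array gave Gabra2 -0.26 to 0.12, Gabra3 -0.17 to 0.073, Gabra4 -0.39 to 0.014, Gabra5 -0.10 to 0.15, Gabrb2 -0.14 to 0.0040 and Gabrg1 -0.57 to 0.19. Only Gabrb1, of the 7, kept its sign in the ratio under every alternative run.

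Against 0, 3 to 4 subunits passed on the oxaliplatin arrays under all alternatives. On the vehicle arrays 2 passed with the scanner's log ratio and 2 with the authors' values, where Gabra2 and Gabrb1 were lost, and 1 to 4 passed without an array. The oxaliplatin ratio of Gabrg1 was 0.088 with median centring and -0.55 to 0.21 without an array, that of Gabra5 -0.16 to 0.088. The vehicle ratio of Gabrg1 was -0.084 with the scanner's log ratio and -0.084 with the authors' values. Without an array it was -0.073 to 0.12, and that of Gabra5 -0.14 to 0.015. Gabrg1 passed below 0 on the oxaliplatin arrays without oxaliplatin replicate 1 (-0.55), and Gabra2 passed above 0 there with median centring (0.46) and without oxaliplatin replicate 2 (0.52). Gabra4 passed in both groups under every alternative. The causes were not tested. With 2 arrays per group, leaving out 1 assumes that the lone array varies like those of the other group.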
